A study of Mus musculus with 6 samples.

Results

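The CC and CXC chemokine genes of the mouse were taken by symbol, as *Ccl* or *Cxcl* with a number and at most 1 further letter, together with *Cx3cl1* and *Xcl1*. This gave 40 genes of the 55367 gene symbols listed in each library. Their expression was followed in DBA-positive kidney cells, which bind the plant lectin Dolichos biflorus agglutinin and are enriched for collecting duct epithelium. RNA-seq covered 3 groups of 2 libraries each, all collected at Day115. The WT group was of genotype WT (Pkd1+/+) and received saline. The ADPKD group was Pkd1-/- and received saline. The ADPKD+MMPP group was Pkd1-/- and received MMPP, a manganese-chelated and PEG-coated nanoparticle resembling melanin, by repeated intravenous injection. The knockout came from tamoxifen given to young male Pkd1 fl/fl;Cre/Esr1+ mice, a Cre that is switched on by the drug and is not described as restricted to the collecting duct. The cells were freed by collagenase and hyaluronidase and captured on beads. No source used here states that the libraries of a group came from separate mice, so the P values measure only the spread between libraries.

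Chemokines are small secreted proteins that guide leukocytes along gradients through G protein-coupled receptors. CC and CXC chemokines differ in whether the first cysteines of the protein are adjacent or separated by a residue. CC members such as *Ccl2* mainly draw monocytes, macrophages and T cells, CXC members with the ELR motif draw neutrophils through Cxcr2, and a further set induced by interferon draws activated T cells through Cxcr3. In cystic kidneys, injured tubular epithelium is a known source of Ccl2, and macrophages are known to promote cyst growth. Many inflammatory chemokine genes are immediate targets of NF-kB, and atypical receptors take chemokines up without signalling for migration.

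Sequence of the promoters was searched for short motifs, because *Cxcl1*, *Cxcl2* and *Cxcl3*, which lie in the same cluster on chromosome 5, did not move together between WT and ADPKD. Promoter sequences from RefSeq (GRCm38.p6) covered 28 of the 40 genes. The NF-kB consensus, on either strand, was present in the 250 bases upstream of the start in 7 of these 28 genes (25%), *Ccl1*, *Ccl9*, *Ccl20*, *Cxcl1*, *Cxcl2*, *Cxcl3* and *Cxcl10*. It was present in 8.24% of the 27018 genes with a promoter and in 7.25% of the 32841 promoters. The stretches below start 120 bases upstream of the RefSeq start and end before the GENCODE gene begins, 5′ to 3′ on the strand of the gene, with the letters of the NF-kB consensus and of the TATA box TATAAA in capitals. They are shown because the same 11 letters, GGGAATTTCCC, stood in the promoters of *Cxcl1*, *Cxcl2* and *Cxcl3*, which differed in expression.
Cxcl1, chr5:90891125-90891240 (+): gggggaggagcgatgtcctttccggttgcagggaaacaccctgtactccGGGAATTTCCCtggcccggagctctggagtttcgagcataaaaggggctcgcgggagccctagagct
Cxcl2, chr5:90903779-90903870 (+): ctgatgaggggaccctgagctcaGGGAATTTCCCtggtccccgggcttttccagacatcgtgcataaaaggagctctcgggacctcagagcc
Cxcl3, chr5:90785981-90786100 (+): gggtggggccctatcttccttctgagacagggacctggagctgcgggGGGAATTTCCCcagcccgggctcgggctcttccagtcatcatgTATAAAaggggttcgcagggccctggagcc
Cxcl10, chr5:92348890-92349009 (-): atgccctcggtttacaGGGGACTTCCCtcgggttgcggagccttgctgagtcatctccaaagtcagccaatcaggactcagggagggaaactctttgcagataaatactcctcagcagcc
The full palindromic cAMP response element TGACGTCA was in 0 of the 28 promoters, against 1.77% of all genes, and its part TGACG in 4 (14.3%), against 19.8%. The AP-1 motif TGANTCA was in 4 promoters (14.3%), against 7.82% of all genes, and TATAAA in 10 (35.7%), against 14.3%. Both strands were searched, and every match to the full element also counts as a match to its part. A match of letters describes these windows only.

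Sequencing depth, taken from the steps in which low FPKM values fall, was 30.6 to 33.1 M reads in the WT and ADPKD libraries and 10.9 to 11.8 M reads in the ADPKD+MMPP libraries. FPKM scales the reads of a gene to its exon length and to the depth of the library. The ADPKD+MMPP libraries also differed in how their values are built, since only 7.0% and 7.03% of their low values were odd read numbers, against 34.1% to 36.1% elsewhere. In them alone, the change against the other groups followed gene structure. The median log2 fold change between ADPKD+MMPP and ADPKD was 1.10 over protein-coding genes with 1 annotated transcript and -1.30 over those with 9 or more, whereas it lay between -0.02 and 0.07 in every such class between ADPKD and WT. All values from treated mice carry this difference, and it cannot be told apart from the treatment. Chemokine values that compare ADPKD+MMPP with another group were therefore also computed after centring every library within classes of genes alike in how much of their exon sequence belongs to a single annotated transcript. *Pkd1*, the deleted gene, was at 17.7 and 17.2 FPKM in WT, 7.64 and 8.91 in ADPKD, and 4.34 and 3.99 in ADPKD+MMPP. The principal cell marker *Aqp2* was at 677 to 3555 FPKM in all 6 libraries, while *Avpr2*, another principal cell gene, did not exceed 0.0587. Podocyte markers summed to 900 and 1231 FPKM in WT, 205 and 90.8 in ADPKD, and 89.7 and 87.2 in ADPKD+MMPP, and proximal tubule markers to 635 to 2128 in the untreated groups and 22970 to 24140 in ADPKD+MMPP, so that the cells were not of the collecting duct alone. Intercalated cell markers, of the collecting duct, were lower in ADPKD in 6 of 6 cases, with sums of 191 and 181 FPKM in WT, 51.0 and 27.0 in ADPKD, and 139 and 149 in ADPKD+MMPP, and markers of the thick limb and distal tubule in 4 of 6, with 1450 and 562, 611 and 184, and 203 and 203. Of all genes tested, 12.5% were called lower in ADPKD. In such bulk samples, fewer cells of a type and less RNA per cell cannot be told apart.

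Most chemokine genes were expressed. At FPKM of at least 1, 29 of the 40 genes were detected in at least 1 library and 16 in all 6 libraries. The 16 were *Ccl2*, *Ccl3*, *Ccl4*, *Ccl5*, *Ccl6*, *Ccl7*, *Ccl9*, *Ccl12*, *Ccl17*, *Cx3cl1*, *Cxcl1*, *Cxcl2*, *Cxcl10*, *Cxcl12*, *Cxcl13* and *Cxcl16*. The number detected was 17 in each WT library, 25 and 22 in those of ADPKD, and 27 and 28 in the shallower libraries of ADPKD+MMPP. Among the 11 genes under 1 FPKM everywhere, *Ccl1*, *Ccl21b*, *Ccl21c*, *Ccl21d* and *Ccl27b* were listed at 0 in every library, while *Ccl24*, *Ccl25*, *Ccl26*, *Cxcl11*, *Cxcl15* and *Xcl1* reached at most 0.810. A count of 3 reads over 1 kilobase of exon is 0.0907 to 0.0981 FPKM in the untreated groups and 0.254 and 0.275 in the treated one, which covers counting error only. Of the 29 detected genes, 27 passed the filter of at least 1 FPKM in at least 2 libraries and were tested. *Ccl19* and *Cxcl17* did not. Among the 27, 10 did not reach 1 FPKM in any WT library, and *Ccl21a* passed through the ADPKD+MMPP libraries alone.

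**Figure D1:**
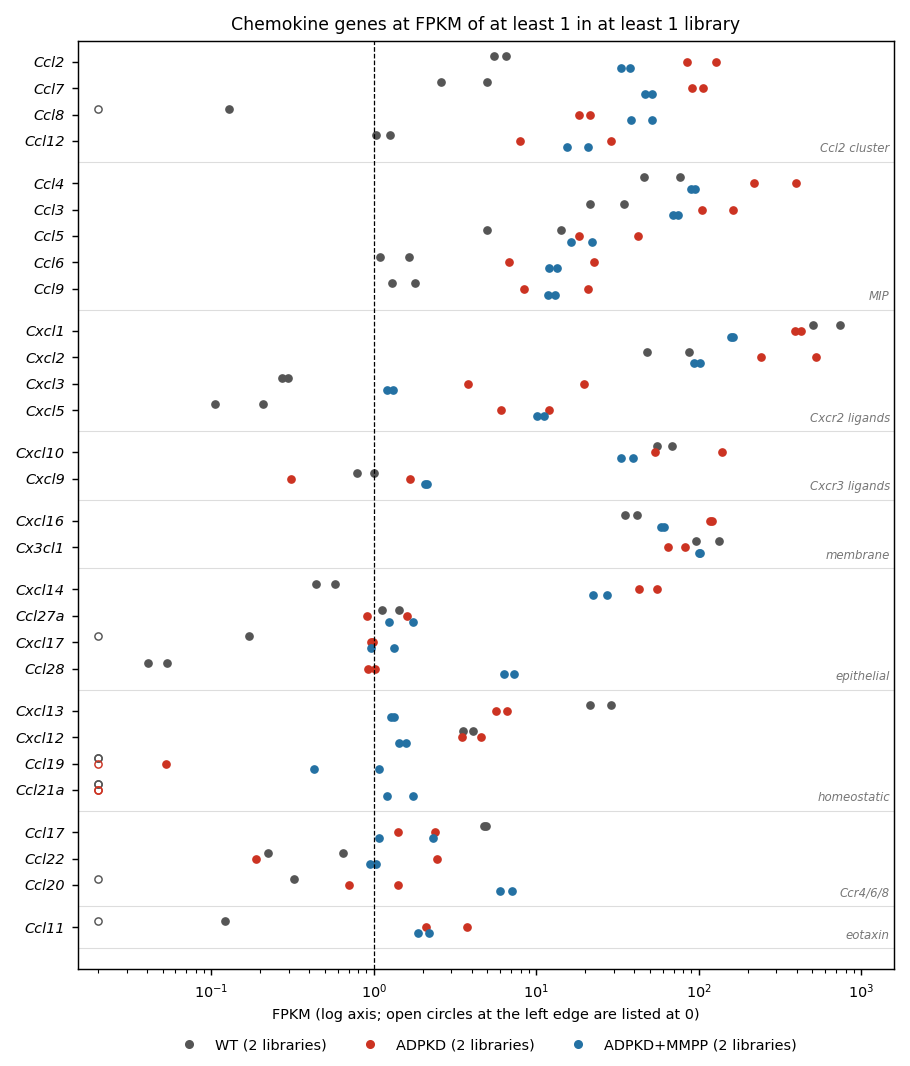
FPKM on a log axis of the 29 chemokine genes detected at 1 FPKM or more in at least 1 library, ordered by role, with 1 point per library (grey WT, red ADPKD, blue ADPKD+MMPP, open circles for values listed at 0, dashed line at 1 FPKM). The red points of *Ccl2*, *Ccl7*, *Ccl8*, *Cxcl14* and *Cxcl16* lie to the right of all grey ones, those of *Cxcl1* and *Cxcl13* to the left.

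The make-up of the chemokine RNA differed between WT and cystic kidneys. Summed over the 40 genes, chemokine FPKM was 1248 and 863 in WT, 1915 and 1925 in ADPKD, and 903 and 850 in ADPKD+MMPP. *Cxcl1*, a neutrophil attractant, made up 59.5% and 58.3% of this sum in WT, 20.5% and 22.2% in ADPKD, and 18.0% and 18.6% in ADPKD+MMPP. In ADPKD the room was taken mainly by *Cxcl2*, at 12.6% and 27.3% against 6.96% and 5.58% in WT, and by *Ccl4*, at 20.7% and 11.4% against 6.10% and 5.30%. *Cx3cl1* held 10.6% and 11.1% in WT, 4.29% and 3.34% in ADPKD, and 11.3% and 11.8% in ADPKD+MMPP. Shares are of a sum of FPKM, so a fall in the share of 1 gene can come from a rise of others. All these sums are as deposited, without centring by gene structure. Over all genes, FPKM summed to 284459 and 281586 in ADPKD and to 350159 and 351015 in ADPKD+MMPP. *Cxcl2*, with a mean of 383 FPKM in ADPKD and 98.0 in ADPKD+MMPP, was not lower after centring (log2 fold change 0.26).

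**Figure D2:**
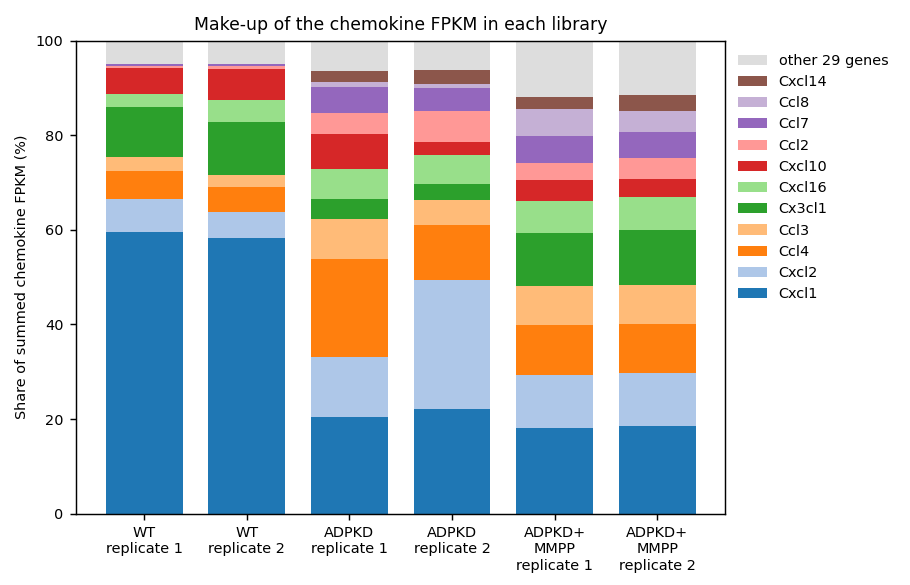
Share of summed chemokine FPKM (%) taken by 11 genes and by the other 29 genes together in each of the 6 libraries. *Cxcl1* fills 59.5% and 58.3% of the WT bars and between 18.0% and 22.2% of the others.

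Between ADPKD and WT, chemokine genes were mostly higher in ADPKD. Of the 27 tested, 17 were called higher (63.0%), 3 lower (11.1%) and 7 were not called. A call needed a 1.5-fold difference and an unadjusted P under 0.05 in limma, the thresholds of the study. Over all 14862 genes tested, 14.2% were called higher and 12.5% lower. The middle (median) log2 fold change, taken on FPKM + 1, was 1.62 over the 27 genes and 0.03 over all genes. Among the 17, *Ccl8*, *Ccl11*, *Ccl20*, *Ccl28*, *Cxcl3*, *Cxcl5* and *Cxcl14* did not reach 1 FPKM in any WT library. They passed the filter only through Pkd1-/- libraries, which favours a higher call. The genes lower in ADPKD were *Ccl17*, *Cx3cl1* and *Cxcl13*. Centring by gene structure left the calls at 17 higher and 3 lower of 26 genes. Of the 17, 16 kept an adjusted p under 0.05, the exception being *Ccl5*.

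Between ADPKD+MMPP and ADPKD, 4 of the 27 genes were called higher (14.8%) and 12 lower (44.4%), and 11 were not called. The 4 include *Ccl21a*, which passed the filter through the treated libraries alone and so had to differ, leaving 3 of 26. *Ccl20* and *Ccl28* reached 1 FPKM in a single untreated library each, so they too needed the treated libraries to pass the filter. Of all genes tested, 27.9% were called higher and 43% lower, so that the share of chemokine genes called lower was near that of all genes and the share called higher was below it. The medians were -0.34 over the chemokine genes and -0.36 over all genes. After centring by gene structure, 6 were called higher and 10 lower of 26 genes, against 33.8% and 24.5% of the 12374 genes with a centred value. Of the 12 genes called lower, *Ccl3*, *Ccl4*, *Ccl7*, *Cxcl1*, *Cxcl3* and *Cxcl13* were also called lower after centring. *Ccl2* was not, and *Cxcl2*, *Cxcl10*, *Cxcl12*, *Cxcl14* and *Cxcl16* had values above 0. Of the genes called higher, *Ccl20* and *Ccl28* were also called after centring, *Ccl8* was not, and *Ccl21a* has no centred value. Centring does not remove the part of the filter in the calls of *Ccl20* and *Ccl28*.

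Between ADPKD+MMPP and WT, 14 genes were called higher (51.9%) and 4 lower (14.8%), against 30.1% and 43.8% of all genes tested. The median was 1.07 over the chemokine genes and -0.36 over all genes. Among the genes called higher, *Ccl8*, *Ccl11*, *Ccl20*, *Ccl28*, *Cxcl5* and *Cxcl14* did not reach 1 FPKM in WT. They passed the filter only through Pkd1-/- libraries, and *Ccl21a*, again among the genes called, through the treated libraries alone. After centring, 13 were called higher and 4 lower of 26 genes, against 35.9% and 26.7% of all genes. The genes called lower were *Ccl17*, *Cxcl1*, *Cxcl12* and *Cxcl13*, the last by far the most (-3.49 ± 0.17, adjusted p = 2.93e-05, and -4.70 after centring). *Cxcl3* (0.82), *Cxcl9* (0.71) and *Cxcl10* (-0.75) were called when either ADPKD replicate, which enters here through the estimate of the spread alone, was left out, and *Ccl5* (1.07) was called at 1.74 without WT replicate 1. After centring these were 0.60, -0.49, 0.92 and 0.62, none called. These libraries differ from WT in genotype, in treatment and in how the values are built.

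**Figure D3:**
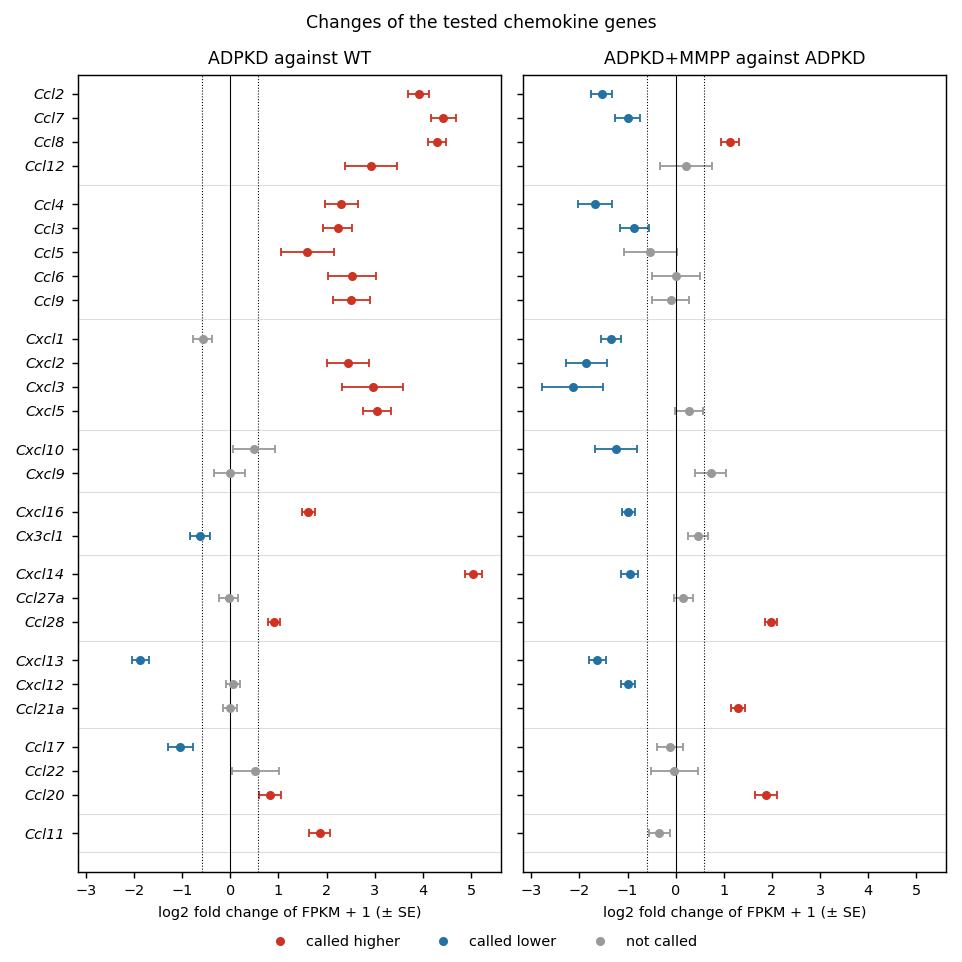
Log2 fold change of FPKM + 1 with its SE (limma) for the 27 tested chemokine genes, for ADPKD against WT on the left and ADPKD+MMPP against ADPKD on the right, red where called higher, blue where called lower and grey where not called. Dotted lines mark a fold change of 1.5. On the left 17 genes lie to the right as called and 3 to the left, on the right 4 and 12.

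The monocyte chemokines of the *Ccl2* cluster on chromosome 11 were higher in ADPKD in 4 of 4 cases, against 14.2% of all genes. *Ccl2* (82035571-82037453, GRCm38), the main ligand of Ccr2, was at 5.49 and 6.47 FPKM in WT, 85.1 and 127 in ADPKD, and 33.0 and 37.7 in ADPKD+MMPP. The groups did not overlap, the mean in ADPKD being 17.7 times that in WT. The log2 fold change was 3.92 ± 0.22 (SE, limma adjusted p = 0.00186) in ADPKD against WT and -1.53 ± 0.22 (adjusted p = 0.00121) in ADPKD+MMPP against ADPKD. Centred by gene structure, the second value was -0.15 (adjusted p = 0.567) and no longer called. *Ccl7* (82045712-82047525), which shares receptors with Ccl2, was at 4.98 and 2.58 FPKM in WT, 107 and 90.3 in ADPKD, and 51.2 and 46.7 in ADPKD+MMPP. It rose by 4.42 ± 0.26 on the log2 scale in ADPKD (adjusted p = 0.00186) and was lower after MMPP (-0.99 ± 0.26, adjusted p = 0.0141). *Ccl7* has 1 annotated transcript, and its centred value after MMPP was -2.05 (adjusted p = 0.00054). Its call after MMPP was lost without ADPKD replicate 1 (-0.87) and without ADPKD+MMPP replicate 2 (-0.93). *Ccl8* (82115185-82116799), an attractant of monocytes and T cells, was at 0.128 and 0 FPKM in WT, 21.5 and 18.2 in ADPKD, and 51.7 and 38.0 in ADPKD+MMPP. It was the only gene of the cluster with higher values in both treated libraries than in both ADPKD libraries. The WT libraries held 2 reads of it in all and the ADPKD libraries 661, a depth-adjusted ratio of 312. The exact binomial 95% interval was 86.1 to 2584, which covers counting error only. It takes each read as independent, so it is too narrow if both ends of a fragment were counted. *Ccl8* was called higher in ADPKD (adjusted p = 0.000976) and higher again in ADPKD+MMPP than in ADPKD (log2 fold change 1.13 ± 0.19, adjusted p = 0.00237), where the centred value was 0.07 and not called. *Ccl12* (82101845-82103400), the mouse relative of Ccl2, was at 1.04 and 1.26 FPKM in WT, 28.8 and 7.96 in ADPKD, and 20.8 and 15.4 in ADPKD+MMPP. The ADPKD replicates spanned the treated ones. The rise in ADPKD was 2.93 ± 0.54 (adjusted p = 0.0149), and the change after MMPP was 0.21 ± 0.54, 1.08 without ADPKD replicate 1, -0.66 without ADPKD replicate 2 and 2.15 after centring. Its direction after MMPP thus depended on 1 library. Against WT, all 4 genes were still higher in the treated mice, with log2 fold changes of 2.38 for *Ccl2*, 3.43 for *Ccl7* and 3.14 for *Ccl12*, and of 3.74, 2.23 and 5.11 after centring.

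The macrophage inflammatory protein genes lie further along chromosome 11, and 5 of 5 were higher in ADPKD, against 14.2% of all genes. *Ccl3* and *Ccl4* (83647844-83649355 and 83662584-83664683), attractants made by activated macrophages and lymphocytes, were already abundant in WT. *Ccl4* was at 76.1 and 45.7 FPKM in WT, 397 and 220 in ADPKD, and 94.4 and 89.2 in ADPKD+MMPP. It rose by 2.31 ± 0.35 in ADPKD (adjusted p = 0.00876) and fell after MMPP (-1.68 ± 0.35, adjusted p = 0.00582, -2.74 after centring), and against WT the treated libraries were not called (0.63 ± 0.35, adjusted p = 0.145). That last value was -0.58 after centring, also not called, and was called at 0.93 with TMM factors. *Ccl3* was at 34.6 and 21.3 FPKM in WT, 163 and 105 in ADPKD, and 74.5 and 69.4 in ADPKD+MMPP. It rose by 2.23 ± 0.30 (adjusted p = 0.00637), and was called lower after MMPP (-0.86 ± 0.30, adjusted p = 0.0387). That call was lost without ADPKD replicate 1 (-0.54) and without either treated replicate (-0.91 and -0.81), and the centred value was -1.92. Against WT, *Ccl3* was higher in ADPKD+MMPP by 1.37, and by 0.17 after centring, where it was not called. *Ccl5*, a T cell and monocyte attractant, was at 14.1 and 4.98 FPKM in WT, 42.0 and 18.3 in ADPKD, and 21.9 and 16.4 in ADPKD+MMPP. Its replicates differed widely in both untreated groups. The rise of 1.6 ± 0.55 in ADPKD had an adjusted p of 0.0836, and the call was lost without WT replicate 2 (0.93), without ADPKD replicate 1 (1.02) and without either ADPKD+MMPP replicate (1.6), which enter this comparison through the estimate of the spread alone. After MMPP *Ccl5* was not called (-0.53 ± 0.55, and -0.95 after centring). *Ccl6* and *Ccl9*, ligands of Ccr1 made by myeloid cells, behaved alike in level. *Ccl6* was at 1.64 and 1.10 FPKM in WT, 6.81 and 22.7 in ADPKD, and 11.9 and 13.5 in ADPKD+MMPP. *Ccl9* was at 1.78 and 1.28 FPKM in WT, 8.44 and 20.8 in ADPKD, and 13.0 and 11.7 in ADPKD+MMPP. Both were highest in ADPKD replicate 2 and lower in ADPKD replicate 1 than in the treated libraries. In ADPKD they rose by 2.53 (adjusted p = 0.0181) and 2.51 (adjusted p = 0.00915). After MMPP the values were 0.01 and -0.11, not called, and 0.67, not called, and -1.22, called, after centring. For *Ccl6* the value was called at -0.79 without ADPKD replicate 1 and at 0.81 without replicate 2, and for *Ccl9* it was called at -0.71 without replicate 1.

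The neutrophil chemokines of chromosome 5 did not move as a group. *Cxcl1* (90891241-90893115) had the highest FPKM of all chemokine genes in the WT and the ADPKD+MMPP libraries and the highest mean in ADPKD (410). In single ADPKD libraries it was passed by *Ccl4* in replicate 1 (397) and by *Cxcl2* in replicate 2 (526). *Cxcl1* was at 742 and 503 FPKM in WT, 392 and 427 in ADPKD, and 163 and 158 in ADPKD+MMPP. It was lower in ADPKD without overlap, but its log2 fold change of -0.58 ± 0.20 (adjusted p = 0.0882) fell just short of a fold change of 1.5, and it was called at -0.86 without WT replicate 2. After MMPP *Cxcl1* fell (-1.34 ± 0.20, adjusted p = 0.00154, and -0.70 after centring, adjusted p = 0.0235), and it was also lower than in WT (-1.92, and -1.28 after centring). *Cxcl2* (90903871-90905938), the nearest relative of Cxcl1 with the same NF-kB letters in its promoter, went the other way in ADPKD, from 86.8 and 48.2 FPKM in WT to 241 and 526, with 102 and 93.8 in ADPKD+MMPP. It rose by 2.44 ± 0.43 (adjusted p = 0.0131). Its fall after MMPP (-1.85 ± 0.43, adjusted p = 0.00915) became 0.26 after centring (adjusted p = 0.602), 4.55% of its exon bases belonging to a single transcript. *Cxcl3* (90786103-90789600), also an agonist of Cxcr2, was at 0.271 and 0.295 FPKM in WT, 3.79 and 19.6 in ADPKD, and 1.21 and 1.31 in ADPKD+MMPP. The ADPKD replicates differed most among the genes of this group. *Cxcl3* rose by 2.95 ± 0.64 (adjusted p = 0.0232), or 1.90 without ADPKD replicate 2. After MMPP it was lower (-2.14 ± 0.64, adjusted p = 0.0232), at -1.08 without ADPKD replicate 2 and at -2.34 after centring, and the call was lost without either treated replicate (-2.1 and -2.17). *Cxcl5* (90759360-90761624), an epithelial neutrophil attractant, was at 0.105 and 0.208 FPKM in WT, 6.02 and 12 in ADPKD, and 10.1 and 11.2 in ADPKD+MMPP. It rose by 3.05 ± 0.29 (adjusted p = 0.00351) and, unlike the other 3 as deposited, was not lower after MMPP (0.28 ± 0.29, adjusted p = 0.406, with an interval from -0.44 to 1.01). The value was called at 0.73 without ADPKD replicate 2 and at 2.05 after centring. *Cxcl15*, the lung-type member, did not exceed 0.0308 FPKM.

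The interferon-induced chemokines, which attract activated T cells and NK cells, were called in 0 of 2 cases in ADPKD. Over all genes, 14.2% were called higher and 12.5% lower there. *Cxcl10* was at 68.3 and 55.1 FPKM in WT, 140 and 53.8 in ADPKD, and 39.2 and 33.2 in ADPKD+MMPP. ADPKD replicate 1 stood above all other libraries and replicate 2 below both WT libraries. The log2 fold change of 0.49 ± 0.43 (adjusted p = 0.436) was called at 1.17 without ADPKD replicate 2. After MMPP *Cxcl10* was called lower (-1.24 ± 0.43, adjusted p = 0.0399), which was lost without ADPKD replicate 1 (-0.56), without either WT replicate (-1.24) and without either treated replicate (-1.36 and -1.13), stood at -1.92 without ADPKD replicate 2, and became 0.48 after centring. *Cxcl9* was at 0.792 and 0.996 FPKM in WT, 1.67 and 0.310 in ADPKD, and 2.13 and 2.07 in ADPKD+MMPP. It was not called in any comparison as deposited, with 0.73 ± 0.33 after MMPP (adjusted p = 0.0876). The centred values had the opposite sign, at -0.35 after MMPP and -0.49 against WT, neither called, while without ADPKD replicate 1 the change after MMPP was 1.24 and called. *Cxcl11* did not exceed 0.558 FPKM. *Cxcl10* overlaps *Art3* on the opposite strand, and the sources do not say whether counting used strand. The same limit holds for *Ccl2*, *Ccl6*, *Ccl27a* and *Cxcl16*, which overlap *Gm17268*, *E230016K23Rik*, *Il11ra1* and *Zmynd15* on the opposite strand.

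The transmembrane chemokines, which also hold leukocytes to the cells that make them, moved apart. *Cxcl16*, the ligand of Cxcr6, was at 34.9 and 41.5 FPKM in WT, 121 and 118 in ADPKD, and 61.5 and 58.3 in ADPKD+MMPP. Its replicates were close and its groups well apart. *Cxcl16* rose by 1.62 ± 0.13 (adjusted p = 0.0031) in ADPKD. After MMPP it was lower as deposited (-0.98 ± 0.13, adjusted p = 0.000979), with a centred value of 0.13 that was not called. Against WT the treated libraries were higher by 0.64, by 0.52 and not called without WT replicate 1, and by 1.78 after centring. *Cx3cl1*, or fractalkine, was at 133 and 96.2 FPKM in WT, 82.2 and 64.3 in ADPKD, and 102 and 100 in ADPKD+MMPP. It was lower in ADPKD (-0.63 ± 0.20) with an adjusted p of 0.0713, and the call was lost without WT replicate 1 (-0.40) and without ADPKD replicate 2 (-0.45). Endothelial markers, whose cells are a known source of fractalkine, moved with it between WT and ADPKD, 6 of 6 being lower with sums of 785 and 657 FPKM in WT and 313 and 287 in ADPKD, and they were at 108 and 111 in ADPKD+MMPP. Of all genes tested, 12.5% were called lower in ADPKD. The part of endothelial cells in the fall of *Cx3cl1* was not tested. After MMPP *Cx3cl1* was 0.47 ± 0.20 (adjusted p = 0.0788), not called, and the centred value had the opposite sign (-0.34, not called). It was called at 0.64 without ADPKD replicate 1. Against WT it was not called (-0.16), but was called lower after centring (-0.99).

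On the scale of log2(FPKM + 1), the largest rise of the 27 tested genes in ADPKD was that of *Cxcl14*, an epithelial chemokine that attracts monocytes and dendritic cells. It was at 0.573 and 0.442 FPKM in WT, 43.1 and 55.3 in ADPKD, and 22.3 and 27.2 in ADPKD+MMPP. Under 1 FPKM in WT, it was among the abundant chemokine genes in ADPKD. The log2 fold change was 5.05 ± 0.18 (adjusted p = 0.000671), and the ratio of the means was 97.0. After MMPP it was lower as deposited (-0.96 ± 0.18, adjusted p = 0.00342) and called higher after centring (0.81, adjusted p = 0.0107), so that its direction depended on how gene structure was treated. *Ccl28*, a mucosal chemokine for Ccr10 and Ccr3, was at 0.0405 and 0.0533 FPKM in WT, 0.918 and 1.01 in ADPKD, and 6.29 and 7.30 in ADPKD+MMPP, with 6 and 8 reads in the WT libraries and 360 and 386 in the treated ones. Its levels were stepwise higher without overlap. *Ccl28* passed the filter only with the treated libraries, which favours a higher value there. The log2 fold change was 0.91 ± 0.12 in ADPKD (adjusted p = 0.00671) and 1.99 ± 0.12 after MMPP (adjusted p = 6.3e-05), or 0.91 after centring (adjusted p = 0.000895), still called. *Ccl27a*, a skin-type chemokine that also binds Ccr10, was between 0.902 and 1.75 FPKM in all libraries and was not called as deposited, but at 1.93 after MMPP when centred. Near-identical copies and the overlapping gene *Il11ra1* make its reads uncertain. *Cxcl17*, a mucosal chemokine, was at 0 and 0.170 FPKM in WT, 0.954 and 0.984 in ADPKD, and 1.34 and 0.964 in ADPKD+MMPP, and reached 1 FPKM in a single library.

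The homeostatic chemokines, which organise lymphoid tissue, followed another course. *Cxcl13*, the B cell attractant, was at 28.9 and 21.4 FPKM in WT, 6.57 and 5.64 in ADPKD, and 1.33 and 1.28 in ADPKD+MMPP. Its groups did not overlap at any step. *Cxcl13* was lower in ADPKD (-1.87 ± 0.17, adjusted p = 0.00348) and lower again after MMPP (-1.62 ± 0.17, adjusted p = 0.000391, and -2.68 after centring), where 18 and 16 reads stood behind the values. B cell markers summed to between 1.84 and 4.60 FPKM and podocyte and endothelial markers fell in the same direction between WT and ADPKD. The part of other cells in the fall of *Cxcl13* was not tested. *Cxcl12*, the ligand of Cxcr4, was at 4.05 and 3.54 FPKM in WT, 4.55 and 3.46 in ADPKD, and 1.58 and 1.44 in ADPKD+MMPP. It was not called in ADPKD (0.06 ± 0.15, interval from -0.32 to 0.43). It was called lower after MMPP (-0.99 ± 0.15, adjusted p = 0.00164), but the centred values were 0.12 against ADPKD and 0.20 against WT. *Ccl21a*, a ligand of Ccr7, was listed at 0 in the 4 untreated libraries and was at 1.20 and 1.73 FPKM in ADPKD+MMPP, which is also how it passed the filter, so that its call there is no evidence of its own. *Ccl19*, the other ligand of Ccr7, was listed at 0 in 3 untreated libraries and was at 0.0522 in ADPKD replicate 2 and at 0.426 and 1.07 in ADPKD+MMPP. Both genes have near-identical copies in the annotation, and reads could have been split among them.

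Chemokines for Ccr4 and Ccr6 were low. *Ccl17*, a T cell attractant made by dendritic cells, was at 4.90 and 4.78 FPKM in WT, 1.41 and 2.37 in ADPKD, and 2.31 and 1.07 in ADPKD+MMPP. The close WT values stood above the 4 others. *Ccl17* was lower in ADPKD (-1.03 ± 0.27, adjusted p = 0.0398), with the call lost without ADPKD replicate 1 (-0.79), and was not called after MMPP as deposited (-0.12 ± 0.27, interval from -0.79 to 0.54) but at -1.18 when centred. *Ccl22*, its partner on Ccr4, was at 0.647 and 0.222 FPKM in WT, 2.46 and 0.188 in ADPKD, and 0.947 and 1.03 in ADPKD+MMPP. The ADPKD replicates stood at opposite ends. *Ccl22* was not called in ADPKD (0.51 ± 0.49), but was at 1.29 without ADPKD replicate 2. After MMPP it was -0.03 with all libraries, was called at 0.74 without ADPKD replicate 1 and at -0.80 without replicate 2, and was called at -1.14 when centred. Against WT it was 0.48, and -0.66 when centred, neither called. *Ccl20*, the ligand of Ccr6 and an epithelial target of IL-17, was at 0.322 and 0 FPKM in WT, 1.40 and 0.702 in ADPKD, and 7.03 and 5.93 in ADPKD+MMPP. Its rise in ADPKD (0.82 ± 0.23, adjusted p = 0.0486) was lost without WT replicate 2 (0.61) and without ADPKD replicate 1 (0.57). After MMPP it was higher by 1.88 ± 0.23 (adjusted p = 0.000636), and by 2.77 after centring. *Ccl20* passed the filter only with the treated libraries, which favours a higher value there. *Ccl11*, the eosinophil attractant eotaxin, was at 0.121 and 0 FPKM in WT, from 4 reads and none, at 3.72 and 2.1 in ADPKD, and at 2.19 and 1.86 in ADPKD+MMPP. It rose by 1.85 ± 0.22 (adjusted p = 0.005) in ADPKD. After MMPP it was not called as deposited (-0.34 ± 0.22) and was called at -0.64 without ADPKD replicate 2 and at -1.40 when centred, and against WT the value of 1.51 became 0.31, not called.

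**Figure D4:**
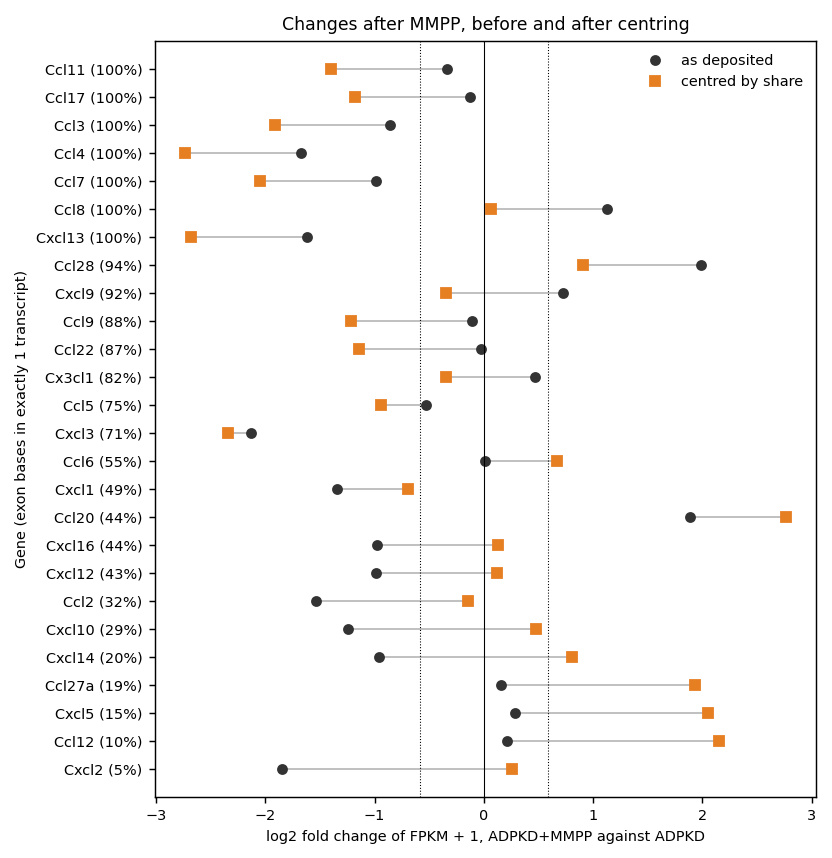
Log2 fold change of FPKM + 1 in ADPKD+MMPP against ADPKD for the 26 chemokine genes with a centred value, as deposited (black circles) and after centring by gene structure (orange squares), ordered by how much of the exon sequence belongs to a single transcript, from 100% at the top to 5% at the bottom, with dotted lines at a fold change of 1.5. Genes at the top move left on centring (*Ccl8* from 1.13 to 0.07), those at the bottom move right (*Cxcl2* from -1.85 to 0.26), and *Ccl4*, *Cxcl13* and *Cxcl3* stay on the left in both.

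Few receptors for these chemokines reached 1 FPKM. Of 19 chemokine receptors, 6 passed the filter, of which 3 were higher and 1 lower in ADPKD, against 14.2% and 12.5% of all genes, and 1 was higher and 1 lower after MMPP, against 27.9% and 43%. *Ccr2*, the receptor of Ccl2, did not exceed 0.349 FPKM. *Cxcr2*, the receptor of Cxcl1, Cxcl2, Cxcl3 and Cxcl5, did not exceed 0.233 FPKM, *Cxcr6* did not exceed 0.646 and *Cx3cr1* 0.624. *Ccr1*, a myeloid receptor for Ccl3, Ccl5, Ccl6, Ccl7 and Ccl9, was at 0.139 and 0.0912 FPKM in WT, 1.47 and 11.1 in ADPKD, and 5.26 and 5.24 in ADPKD+MMPP. ADPKD replicate 2 was also the library with the highest *Ccl6* and *Ccl9*. *Ccr1* was called higher in ADPKD (2.29 ± 0.69, adjusted p = 0.0591). It did not reach 1 FPKM in WT and passed the filter only through Pkd1-/- libraries, which favours that call. *Cxcr4*, the receptor of Cxcl12, was at 11.1 and 8.66 FPKM in WT, 16.8 and 32.0 in ADPKD, and 17.1 and 16.7 in ADPKD+MMPP, a rise of 1.17 in ADPKD (adjusted p = 0.0392), while *Cxcl12* itself was not called. *Ccrl2*, a receptor that binds chemerin and is grouped with the chemokine receptors, was at 23.3 and 16.2 FPKM in WT, 25.6 and 34.4 in ADPKD, and 4.69 and 4.23 in ADPKD+MMPP, not called in ADPKD (0.58, adjusted p = 0.109) and lower after MMPP (-2.49, adjusted p = 0.000209). *Ackr3*, an atypical receptor that scavenges Cxcl12, was at 9.63 and 12.1 FPKM in WT, 24.2 and 17.5 in ADPKD, and 62.5 and 60.4 in ADPKD+MMPP, a rise of 0.87 in ADPKD (adjusted p = 0.0254) and of 1.53 after MMPP (adjusted p = 0.000767). *Ackr2*, which removes inflammatory CC chemokines, was at 3.67 and 3.43 FPKM in WT, 0.561 and 1.32 in ADPKD, and 0.0542 and 0 in ADPKD+MMPP, and was lower in ADPKD (-1.26, adjusted p = 0.0104). Of the 6 genes for enzymes that cut chemokines, 1 was higher and 1 lower in ADPKD, against 14.2% and 12.5% of all genes, and 1 was higher and 2 lower after MMPP, against 27.9% and 43%. The gene higher in ADPKD, *Mmp9*, did not reach 1 FPKM in WT and passed the filter only through Pkd1-/- libraries, which favours that call. The sheddases of the transmembrane chemokines, *Adam10* at 15.6 to 24.1 FPKM and *Adam17* at 8.13 to 10.1 FPKM in the untreated groups, were not called in ADPKD. After MMPP *Adam10* was at 42.1 and 41.1 FPKM and called higher (0.77, adjusted p = 0.00172), and *Adam17* at 0.900 and 0.641 FPKM and called lower (-2.58, adjusted p = 3.85e-05).

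Of 12 cytokines that induce chemokine genes, 11 were tested, and 7 were higher, 0 lower and 4 not called in ADPKD, against 14.2% and 12.5% of all genes. After MMPP 3 were higher and 5 lower, against 27.9% and 43%. The 3 include *Il17a*, listed at 0 in the untreated libraries, and *Csf2*, at no more than 0.585 FPKM there. Both passed the filter through the treated libraries alone, so their higher calls are no evidence of their own. *Tnf*, an activator of NF-kB that is named outside the rule for such genes because its values had been seen, was at 15 and 9.76 FPKM in WT, 84.4 and 89.0 in ADPKD, and 25.1 and 30.1 in ADPKD+MMPP. It rose by 2.74 in ADPKD (adjusted p = 0.00302) and fell after MMPP (-1.62, adjusted p = 0.000944). *Il1b*, also an activator of NF-kB, rose at each step, from 5.99 and 2.86 FPKM in WT to 15 and 51.5 in ADPKD and 112 and 105 in ADPKD+MMPP (2.48, adjusted p = 0.0294, and 1.92, adjusted p = 0.0247). *Csf1*, the growth factor of macrophages, was at 71.0 and 56.9 FPKM in WT, 118 and 111 in ADPKD, and 4.55 and 3.47 in ADPKD+MMPP. *Il6* was at 35.2 and 20.1, 44.1 and 90.3, and 4.46 and 5.06 FPKM in the same order, and *Il33* and *Ifnb1* were also called higher in ADPKD and lower after MMPP. *Il33* reached 1 FPKM in the ADPKD libraries alone (7.20 and 24.1), and so passed the filter, which favours both of its calls. *Ifng*, the inducer of Cxcl9 and Cxcl10, did not pass the filter, at 0 to 0.177 FPKM in the untreated groups and 0.719 and 1.98 in ADPKD+MMPP. Of 13 receptors for these cytokines, 3 were higher and 1 lower in ADPKD, among them *Tlr2*, higher by 2.21 (adjusted p = 0.00186), and 2 were higher and 7 lower after MMPP. Values after MMPP for the cytokines, receptors and markers are given as deposited, without centring.

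Markers of leukocytes as a whole and of macrophages were higher in ADPKD, where 14.2% of all genes were called higher and 12.5% lower. The 4 markers common to leukocytes were higher in ADPKD in 4 of 4 cases, with a sum of 11.6 and 5.72 FPKM in WT, 35.5 and 31.7 in ADPKD, and 42.5 and 36.8 in ADPKD+MMPP. *Ptprc*, at 0.930 and 0.601 FPKM in WT and 0.314 and 0.500 in ADPKD+MMPP, passed the filter through the ADPKD libraries alone. This favours its higher call in ADPKD and its lower call after MMPP. Of 10 macrophage markers, 9 were higher and 1 lower in ADPKD, with sums of 131 and 116 FPKM in WT, 628 and 824 in ADPKD, and 1363 and 1413 in ADPKD+MMPP. *Itgam* was at 0.176 and 0.122, 1.15 and 2.92, and 0 and 0 FPKM in the same order, and passed the filter through ADPKD alone. This favours its higher call in ADPKD and its lower call after MMPP. The defining marker *Csf1r* was at 5.0 and 8.04, 17.0 and 25.6, and 0.381 and 0.190 FPKM in that order, whereas *Lyz2* was at 7.63 and 8.69, 188 and 224, and 568 and 565, so that the list did not move as a unit after MMPP, with 4 genes higher and 4 lower, against 27.9% and 43% of all genes. Between ADPKD and ADPKD+MMPP the summed chemokine FPKM was lower, as given above, while the summed leukocyte and macrophage markers were not. Of the 4 leukocyte markers, 1 was called higher after MMPP and 1 lower, with a median log2 fold change of -0.47. The leukocyte sum rested on *Cd52*, with a mean of 9.54 FPKM in ADPKD and 23.0 in ADPKD+MMPP. Every other marker of that list had a lower mean after MMPP. The rise of the macrophage sum came mainly from *Lyz2*, *C1qa*, *C1qb* and *C1qc*, the 4 called higher. Their means were 206, 128, 114 and 51.6 FPKM in ADPKD and 566, 256, 231 and 104 in ADPKD+MMPP. *Adgre1*, *Csf1r*, *Cd68* and *Itgam* were called lower, and *Cd14* and *Mrc1* were not called. Neutrophil markers were called in 0 of 3 tested cases in ADPKD by limma, and 0 had an unadjusted P under 0.05, with sums of 4.40 and 1.84 FPKM in WT, 1.68 and 13.7 in ADPKD, and 10.3 and 8.34 in ADPKD+MMPP. *S100a8* was called higher after MMPP (1.44, adjusted p = 0.0415), and *Ly6g* did not exceed 0.0662. Of 6 T cell markers, *Cd4* alone passed the filter, and it was higher in ADPKD, while none of 4 NK cell markers passed. *Cd4* was at 0.227 and 0.160 FPKM in WT and passed only through Pkd1-/- libraries, which favours a higher call. Of the tested B cell markers, 0 of 2 were higher and 1 was lower in ADPKD, and of the dendritic cell markers, 1 of 3 was higher and 1 lower. No marker of these lists was at 0 in every library. Fibroblast and pericyte markers were higher in 5 of 7 cases and lower in 1 in ADPKD. How much of the chemokine RNA came from leukocytes and how much from tubular epithelium was not tested.

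**Figure D5:**
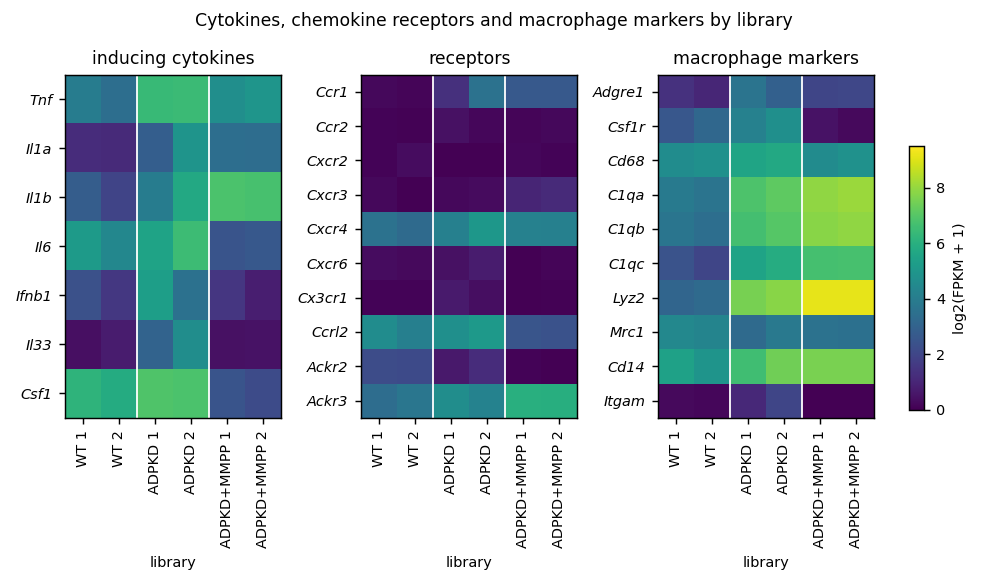
Log2(FPKM + 1) by colour in each of the 6 libraries for 7 inducing cytokines, 10 chemokine receptors and 10 macrophage markers. *Tnf* is brightest in ADPKD, *Lyz2* and *C1qa* in ADPKD+MMPP, and *Ccr2*, *Cxcr2* and *Cx3cr1* stay dark in all 6.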

How the data were processed

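Reads from 6 libraries of polyA RNA were aligned by the authors to GRCm38/mm10 with HISAT2 2.1.0 and counted with featureCounts 1.6.0, and FPKM was deposited per library. The annotation release, the strand setting and the FPKM step are not given in the sources used here. The deposited FPKM are not counts, so genes were tested with limma 3.58.1 in R 4.3.3 on log2(FPKM + 1), a scale that understates changes of low genes, in one fit over all 6 libraries. The fit took the 14862 genes that reached an FPKM of 1 in 2 or more libraries, p values were adjusted by Benjamini-Hochberg over all of them, and a call needed a fold change of 1.5 and an unadjusted P under 0.05. Depth, read numbers, transcripts and positions came from exon lengths in GENCODE vM21, which matched 36 of the 40 chemokine genes. Between 98.5% and 99.0% of low values were whole reads within 0.05. Centred values were taken within 20 classes of genes alike in how much exon sequence belongs to a single transcript, over 12374 protein-coding genes. Every chemokine gene with FPKM of at least 1 in a library is named, and other listed genes where called at a mean FPKM of at least 5, at most 5 a list, plus receptors of named chemokines. Some listed genes under that mean are also named where they passed the filter through Pkd1-/- libraries alone. The members, lists and tests were chosen with earlier results of these data known. The fit was tested on simulated data. Replicate numbers did not pair samples. A result of these lists is not reported here.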

Additional observations from a re-analysis of the deposited data

How the results depend on the processing

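Over 18 other settings, 53 of 1395 values of single genes lost a call, 48 gained one and 10 changed sign while called with or without the setting. A further 40 changed sign without being called either way, so 50 did in all, 13 of them on centring. Calls in ADPKD against WT numbered 15 to 19 higher and 2 to 4 lower when 1 library was left out, ADPKD+MMPP against ADPKD gave 4 to 8 higher (8 without ADPKD replicate 1) and 8 to 15 lower, and ADPKD+MMPP against WT 14 to 16 higher and 4 to 5 lower. A fold change of 2 left 7 lower after MMPP, and quantile normalization left 2 lower in ADPKD+MMPP against WT. A setting with protein-coding genes of 1 transcript alone was chosen after seeing the data and keeps 7 of the 27 genes. There, 5 were higher and 2 lower in ADPKD, and 0 higher and 6 lower after MMPP. In ADPKD+MMPP against WT, 2 were higher and 2 lower. Fewer genes tested is part of the construction. Of the 1308 genes in this fit, 208 were higher and 269 lower in ADPKD, and 287 and 343 after MMPP. Against WT these were 327 and 413 in ADPKD+MMPP. Values that changed sign after MMPP and were called in at least 1 of the fits were *Ccl12* at -0.66 without ADPKD replicate 2 (1.08 without replicate 1), *Ccl22* at 0.74 without ADPKD replicate 1 (-0.80 without replicate 2) and *Ccl6* at -0.79 without ADPKD replicate 1, *Ccl8* at -0.033 with genes of 1 transcript, and, centred by exon share, *Cxcl2* at 0.26, *Cxcl10* at 0.48, *Cxcl12* at 0.12 (0.20 against WT), *Cxcl14* at 0.81 and *Cxcl16* at 0.13. The cause was not tested. Over all genes after MMPP, the share of higher among called genes was 39.3% as deposited, 54% after quantile normalization and 58% after centring, and the median of all genes moved from -0.36 to 0.10 and 0.15, or to -0.73 at a common FPKM sum and -0.14 with TMM factors. With the replicate number as a block, the counts were 17 and 3, 4 and 12, and 16 and 4, and 79 of 81 values kept their call, the others being *Ccl4* (0.63) and *Ccl5* (1.07) in ADPKD+MMPP against WT, called under the block. Deviations of same-numbered libraries correlated at 0.13, -0.01 and 0.01, so the samples share only a number. Depth of 10.9 to 11.8 M reads limits low genes in the treated libraries, and 2 libraries a group limit every mean.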

Other observations

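A pair of platelet and megakaryocyte chemokines whose symbols fall outside the naming rule, *Pf4* (CXCL4) and *Ppbp* (CXCL7), were looked up after the values of the other chemokine genes had been seen. *Pf4* was at 0.680 and 0.179 FPKM in WT, 10.1 and 23.5 in ADPKD, and 12.2 and 14.7 in ADPKD+MMPP. It was higher in ADPKD (log2 fold change 3.55, limma adjusted p = 0.00451) and not called after MMPP (-0.19, adjusted p = 0.674). Under 1 FPKM in WT, *Pf4* passed the filter only through Pkd1-/- libraries, which favours a higher call. *Ppbp* was at 0.302 and 0.119 FPKM in WT, 0.782 and 5.47 in ADPKD, and 4.54 and 9.82 in ADPKD+MMPP, and was not called in ADPKD (1.49, adjusted p = 0.138). In ADPKD, replicate 2 held the higher value of both, as it did for *Ccl6*, *Ccl9*, *Cxcl2*, *Cxcl3* and *Ccr1*, while replicate 1 held the higher value of *Ccl4*, *Ccl5*, *Ccl12*, *Ccl22* and *Cxcl10*.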
